A study of Homo sapiens with 6 samples.

Results

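The genes of DNA replication and mitosis were examined in the human kidney line HK-2, which was derived from proximal tubular epithelium, with and without transforming growth factor β1 (TGF-β1). The set was a fixed list of 53 gene names, each taken at its entry on a primary chromosome, out of 41497 named entries in the tables. It held 22 genes of replication (S phase), 23 genes of mitosis and 8 regulators and checkpoint genes. After the filter on low counts 52 of the 53 could be tested. Both groups were wild-type HK-2 cells harvested at 24 h. One group was labelled as control (3 libraries) and the other as treated with TGF-β1 (3 libraries). The labels give no dose, and the methods of the study give a dose and serum-free medium for its TGF-β experiments in general. The sources used here do not say whether the controls received serum. The labels do not say whether the 3 libraries of a group came from separate cultures, so the p values measure only the spread between these libraries.

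A dividing cell copies its DNA once in S phase and separates the copies in mitosis. Before S phase the MCM helicase is loaded on replication origins by ORC, CDC6 and CDT1, and it is then activated with CDC45 and the GINS complex so that the polymerases can start. Many of the S phase genes are switched on by E2F factors once cyclin D and cyclin E kinases have inactivated the retinoblastoma protein. Most mitotic genes follow later, under MYBL2 (B-MYB) with the MuvB complex and FOXM1, through a short promoter element called CHR. TGF-β1 is known to slow the growth of many epithelial cells, in part by raising the CDK4 and CDK6 inhibitor encoded by CDKN2B.

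Library depth was 21.94 to 26.91 megacounts, and levels are given as CPM, counts scaled to a common library size. SMAD7, CCN2, SKIL and TGFBI, used as a check of the treatment, were all called higher with TGF-β1. The cell line expressed keratin genes such as KRT8 (493, 499.8 and 471 CPM in the control libraries). Of 5 epithelial markers tested 3 were called higher and 2 lower, with KRT19 the lowest (log2 fold change -1.34). Of 13 proximal tubule markers 7 fell below the filter, with LRP2 and SLC22A6 at 0 in all 6 libraries, and 9 were under 1 CPM in every library. AQP1 and CUBN were called higher and DPP4, PAX8 and GGT1 lower. CUBN lost its call without control replicate 2 or 3 or TGF-β1 replicate 1 or 3. The summed level of the 13 was 336 to 370 CPM in control and 208 to 241 CPM with TGF-β1. Of 10 markers of fibroblasts, endothelial cells and leukocytes 7 fell below the filter, and CD3E was at 0 in every library. The other 3 were called, with PDGFRB higher and LUM and CD68 lower, and the summed level of the 10 was 155 to 162 CPM in control and 119 to 141 CPM with TGF-β1. Their part in the results was not tested. The first TGF-β1 library stood apart from the other TGF-β1 libraries in a way that followed gene length. Among the 52 tested genes, those longer than 5 kb (12 genes) had a median log2 ratio of -0.20 in that library against the mean of the others of its group, and the shorter ones 0.037. Counts of called genes, and the values of some but not all genes that lean on this library, are also given without it.

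Promoter sequence is shown for 7 of the genes whose changes are described below, to show the letters that were counted in promoters of the set. The sequences, written 5′ to 3′, are from RefSeq on GRCh38.p14, and each stretch ends at the base before a start of transcription in RefSeq. That start lies 177 bases inside the gene entry of the deposited tables for POLE and 42 bases inside it for ESPL1, and is the start of the entry for the other 5. Capitals mark E2F letters in MCM3, MCM6 and POLE, CHR letters in ESPL1, BUB1B and MKI67, and CCAAT letters in MCM10, a replication gene without an E2F match. A further E2F match in MCM3 runs across the start and is not in the stretch. The stretches are chr6:52284743-52284922, minus strand (MCM3), chr2:135876444-135876623, minus strand (MCM6), chr12:132687343-132687442, minus strand (POLE), chr12:53268199-53268298, plus strand (ESPL1), chr15:40160969-40161068, plus strand (BUB1B), chr10:128126424-128126523, minus strand (MKI67) and chr10:13161428-13161557, plus strand (MCM10).
MCM3: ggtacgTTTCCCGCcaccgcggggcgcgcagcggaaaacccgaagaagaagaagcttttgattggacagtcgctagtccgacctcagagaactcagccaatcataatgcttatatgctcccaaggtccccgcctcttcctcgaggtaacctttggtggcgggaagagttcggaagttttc
MCM6: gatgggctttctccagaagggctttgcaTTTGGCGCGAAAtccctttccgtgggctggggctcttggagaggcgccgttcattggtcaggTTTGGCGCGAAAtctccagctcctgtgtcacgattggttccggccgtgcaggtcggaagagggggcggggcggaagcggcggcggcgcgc
POLE: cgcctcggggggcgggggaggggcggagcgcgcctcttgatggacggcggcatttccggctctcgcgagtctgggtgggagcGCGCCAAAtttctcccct
ESPL1: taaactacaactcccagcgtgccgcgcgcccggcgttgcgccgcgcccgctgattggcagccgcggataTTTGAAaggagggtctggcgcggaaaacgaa
BUB1B: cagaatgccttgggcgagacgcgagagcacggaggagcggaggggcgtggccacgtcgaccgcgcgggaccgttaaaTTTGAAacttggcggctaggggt
MKI67: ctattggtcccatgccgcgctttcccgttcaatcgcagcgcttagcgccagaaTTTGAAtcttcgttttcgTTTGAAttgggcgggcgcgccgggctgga
MCM10: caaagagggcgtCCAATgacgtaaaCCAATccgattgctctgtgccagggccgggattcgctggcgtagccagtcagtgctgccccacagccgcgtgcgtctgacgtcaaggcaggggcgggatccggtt

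The letters searched on both strands were TTTCCCGC, TTTGGCGC, TTTCGCGC and TTTGCCGC for E2F, TTTGAA for CHR and CCAAT, in windows of 300 bases (250 before the start and 50 after it). A gene was counted where any of its windows held a match, and 44 of the 53 genes had a window. In MCM6 each of the 2 marked runs holds a match on either strand, and these overlap. E2F letters were in 12 of 18 replication genes (66.7%) and in 1 of 20 mitosis genes (5.0%), and in 3.99% of all 27305 genes with a window. CHR letters were in 14 of 20 mitosis genes (70.0%) and 1 of 18 replication genes (5.56%), against 18.2% of all genes. CCAAT was common to both, in 14 of 18 replication genes (77.8%) and 16 of 20 mitosis genes (80.0%), against 39.7% of all genes. A match is a run of letters and was not tested as a binding site. Only these exact letters were searched, so a gene without a match may still be under E2F control. MYBL2, named below as an E2F target, had a window and no E2F match.

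The main comparison asked whether the genes of either phase fell when HK-2 cells were given TGF-β1. Changes were small in both phases and ran in both directions. Of the 52 genes tested, 10 were called higher with TGF-β1 and 10 lower at an adjusted p under 0.05 (edgeR quasi-likelihood F test, Benjamini-Hochberg adjustment over 14860 entries), and 32 were not called. The lowest fold was 0.71 (E2F8) and the highest 1.36 (MYBL2). No gene of the set changed by 2-fold or more, and 9.06% of all entries tested did so at an adjusted p under 0.05. All 52 had a log2 fold change under 0.5 in size, against 74.2% of all entries. The entries were not matched to the set in level, and the lowest control mean among the 52 was 13.5 TPM (a level per length). The part of level in this contrast was not tested. The share called, 20 of 52, stood beside a share of 44.3% over all entries tested, of which 22.2% were higher and 22.1% lower. Without the first TGF-β1 library 31 of 52 were called (59.6%), against 47.6% of all entries, so the set went from below to above the share of all entries. In 28 of the 52 genes the 2 groups of libraries did not overlap, against 55.6% of all entries.

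With TMM scaling more replication genes were called lower than higher and more mitosis genes higher than lower, and with total counts the second of these turned round. Among the 22 replication genes 7 were called lower, 3 higher and 12 not called, with a median log2 fold change of -0.064. The lower share was 31.8% and the higher share 13.6%, against the 22.1% and 22.2% of all entries. Without the first TGF-β1 library the median was -0.11 and 17 of the 22 were called (12 lower, 5 higher). Among the 23 mitosis genes 2 were called lower (8.70%), 5 higher (21.7%) and 16 not called, with a median of 0.051, so the higher share was that of all entries and the lower share below it. The median of all entries was 0.0063. With total counts in place of TMM factors the median of all entries shifted by -0.11, the mitosis median turned to -0.057 with 1 called higher and 4 lower, and the replication median went to -0.17 with 2 higher and 12 lower. In that scaling 14.4% of all entries were called higher and 30.9% lower. Taken against the median of all entries, the replication median was -0.070 under both scalings. On the same basis the mitosis median was 0.045 with TMM and 0.044 with total counts. A change of scaling moves the log2 fold changes of all entries nearly alike. These differences could therefore hardly move, and they are no check on the result. The values here are shares of all mRNA, so a lower share of cells in a phase and less of a transcript per cell cannot be told apart.

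**Figure D1:**
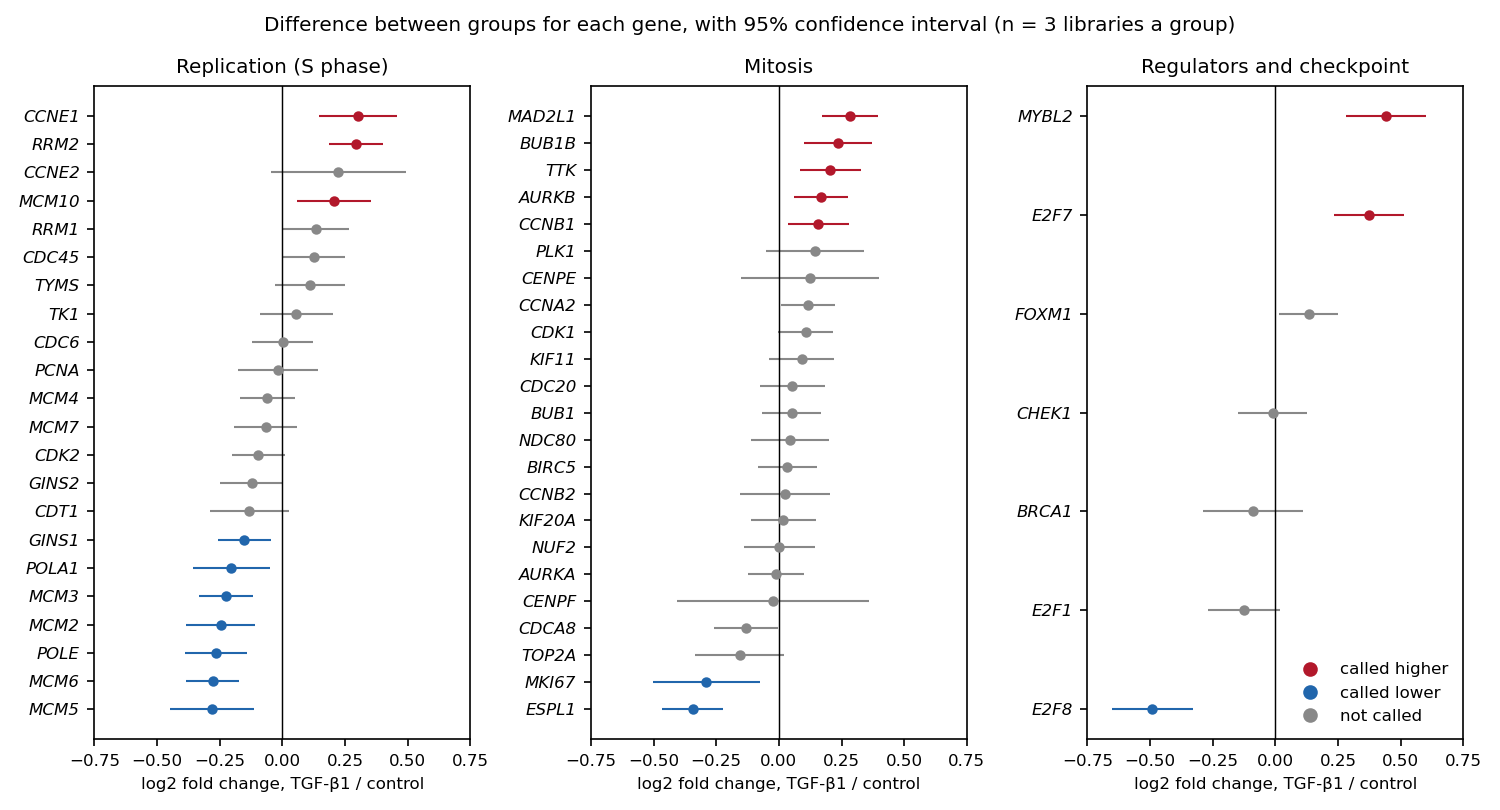
Log2 fold change of TGF-β1 over control (x axis) for each of the 52 tested genes (y axis, ordered by value), in 3 panels for replication, mitosis, and regulators and checkpoint genes. Points are estimates and bars are 95% confidence intervals from 3 libraries a group, with genes called higher in red, lower in blue and not called in grey. All points lie between -0.49 (E2F8) and 0.44 (MYBL2) with TMM scaling, and most blue points are replication genes, 7 of 10.

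The genes that load and drive the helicase made up the largest block, 12 genes, of which 5 fell, 1 rose and 6 were not called (median log2 fold change -0.13). MCM2 to MCM7 encode the 6 subunits of the replicative helicase. MCM6 (chr2:135839626-135876443 on the minus strand, GRCh38, as are all positions here) was at 196, 197 and 200.4 CPM (scaled with TMM factors) in the control libraries and at 159.5, 164 and 166 in the TGF-β1 libraries. Every TGF-β1 library was below every control library, and the log2 fold change was -0.28 (95% interval -0.38 to -0.17, adjusted p = 0.000785). MCM3 (chr6:52264015-52284742 on the minus strand) was at 269.8, 259.8 and 266 CPM in control and 226, 229 and 226 with TGF-β1. The groups were again apart, with a log2 fold change of -0.23 (95% interval -0.33 to -0.12, adjusted p = 0.00306).

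MCM2 (chr3:127598411-127622436 on the plus strand) stood at 189, 178 and 163 CPM in control cells and 148, 154 and 146 CPM in treated cells. Its control libraries were spread more widely than the treated ones, but none reached down to them. The log2 fold change was -0.25 (95% interval -0.38 to -0.11, adjusted p = 0.00826). LOC107986126, on the opposite strand, covers 31.4% of the exonic bases of MCM2 and had 10 to 17 counts a library. MCM5 (chr22:35400133-35454942 on the plus strand) had 136, 138 and 119.9 CPM in the control libraries and 119, 102 and 103 CPM in the TGF-β1 libraries. The third control library lay just above the first treated one. MCM5 had a log2 fold change of -0.28 (95% interval -0.45 to -0.11, adjusted p = 0.012), and the call was lost without control replicate 1 (adjusted p = 0.0574) or control replicate 2 (0.0603). Without the first TGF-β1 library the log2 fold change of MCM5 was -0.37 (adjusted p = 0.000161). Not all subunits passed the test. MCM7, the most abundant in the block (485 ± 11.1 TPM, a level per length, in control), was at 457, 430.5 and 431 CPM in control and 443, 406 and 409.6 CPM with TGF-β1. Its groups overlapped, and its log2 fold change was -0.067 (95% interval -0.19 to 0.058, adjusted p = 0.367). MCM4 had a log2 fold change of -0.06 (95% interval -0.17 to 0.05, adjusted p = 0.356). For both subunits the interval leaves out a fall as large as the point estimates of MCM5 and MCM6.

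GINS1, a subunit of the GINS complex that joins the helicase when origins fire, lies at chr20:25407470-25448568 on the plus strand. Its values were 145, 148 and 148 CPM in control and 132, 134 and 131 CPM with TGF-β1, close together within each group and apart between them. The log2 fold change was small, -0.15 (95% interval -0.26 to -0.046, adjusted p = 0.0243), and the call was lost without any 1 of the control libraries or TGF-β1 replicate 3 (adjusted p = 0.0582 to 0.101). MCM10 (chr10:13161558-13211110 on the plus strand), which helps to activate the helicase and to bring in polymerase α, was the one gene of the block that rose. It was at 64.7, 58.7 and 61.9 CPM in the control libraries and 65.9, 74.9 and 72.9 CPM in the treated libraries, and its lowest treated value was only just above its highest control value. Its log2 fold change was 0.21 (95% interval 0.06 to 0.35, adjusted p = 0.0264), and the call was lost with total counts scaling (log2 fold change 0.098, adjusted p = 0.238) and without control replicate 2 or 3 or TGF-β1 replicate 2 or 3 (adjusted p = 0.0689 to 0.118). The loading factors CDC6 (0.00047) and CDT1 (-0.13), the helicase partner CDC45 (0.13) and the second GINS subunit GINS2 (-0.12) were not called (log2 fold changes).

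Of the 3 genes of DNA synthesis, 2 fell and PCNA was not called. POLE (chr12:132623758-132687519 on the minus strand) encodes the catalytic subunit of polymerase ε, which copies the leading strand. It was at 320.0, 311 and 318 CPM in control and 246, 268 and 276 CPM with TGF-β1, with the first treated library lowest. The groups did not overlap and the log2 fold change was -0.27 (95% interval -0.39 to -0.14, adjusted p = 0.00318). Without the first TGF-β1 library it was -0.23 (adjusted p = 0.000177). POLA1 (chrX:24693877-24996986 on the plus strand), the catalytic subunit of polymerase α that makes the primers, had 115, 112 and 115 CPM in the control libraries and 90.1, 109 and 97.8 CPM in the treated ones. The control values were tight, and the treated values were scattered below them. POLA1 had a log2 fold change of -0.20 (95% interval -0.36 to -0.05, adjusted p = 0.0344), -0.15 without the first TGF-β1 library (adjusted p = 0.0222), and it lost its call when any control library or TGF-β1 replicate 3 was left out (adjusted p = 0.0728 to 0.0979). Both genes are among the longest of the set, 9517 and 9557 bases in the tables. PCNA, the sliding clamp of the polymerases, had the highest level per length of all 53 genes (690.1 ± 39.3 TPM in control). It was at 276, 298 and 296 CPM in control and 319, 273 and 267 CPM with TGF-β1, so the groups overlapped, and its log2 fold change was -0.017 (95% interval -0.18 to 0.14, adjusted p = 0.871). Reads of PCNA and its antisense gene PCNA-AS1, which covers 26.7% of its exonic bases and had 0 counts in all 6 libraries, cannot be told apart where strand was not counted.

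Of the 7 genes of nucleotide supply and of the cyclin E kinase 2 rose and none was called lower. RRM2 (chr2:10122568-10211010 on the plus strand), the regulated subunit of ribonucleotide reductase, which makes deoxyribonucleotides, was at 255, 253 and 244 CPM in control and 305, 308 and 306 CPM with TGF-β1. The treated libraries were nearly equal and all above the control libraries. RRM2 rose with a log2 fold change of 0.29 (95% interval 0.18 to 0.40, adjusted p = 0.000633). Its partner subunit RRM1 (0.13), thymidylate synthase TYMS (0.11) and thymidine kinase TK1 were above 0 but not called. TK1, with the highest level per length of the 4 (324 ± 7.48 TPM), was at 169, 169 and 158 CPM and 188, 162 and 165 CPM in the 2 groups, which overlapped, and its log2 fold change was 0.055 (95% interval -0.09 to 0.20, adjusted p = 0.529). TYMS shares 53.8% of its exonic bases with ENOSF1 on the opposite strand, so its value is uncertain. TK1 shares 7.73% of its exonic bases with AFMID on the opposite strand, which had 417 to 630 counts a library.

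CCNE1 (chr19:29811991-29824312 on the plus strand) encodes cyclin E1, which with CDK2 drives entry into S phase. It was at 30.4, 29.0 and 27.3 CPM in the control libraries and 38.1, 33.7 and 35.1 CPM in the TGF-β1 libraries. All treated values were above all control values, and the log2 fold change was 0.30 (95% interval 0.15 to 0.46, adjusted p = 0.00515). CCNE2, encoding cyclin E2, shares 63.2% of its exonic bases with INTS8 on the other strand and was not called, with a log2 fold change of 0.22 (95% interval -0.047 to 0.49, adjusted p = 0.162). It was called higher without the first TGF-β1 library (log2 fold change 0.35, adjusted p = 0.000607). INTS8 had 1817 to 2239 counts a library and CCNE2 625 to 879. The values of CCNE2 are therefore uncertain where strand was not counted. The kinase gene CDK2 (232 ± 4.07 TPM in control) was at 166, 167 and 166 CPM and 156, 159 and 152 CPM. These groups did not overlap, but the log2 fold change of -0.10 (95% interval -0.20 to 0.01, adjusted p = 0.131) did not pass.

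**Figure D2:**
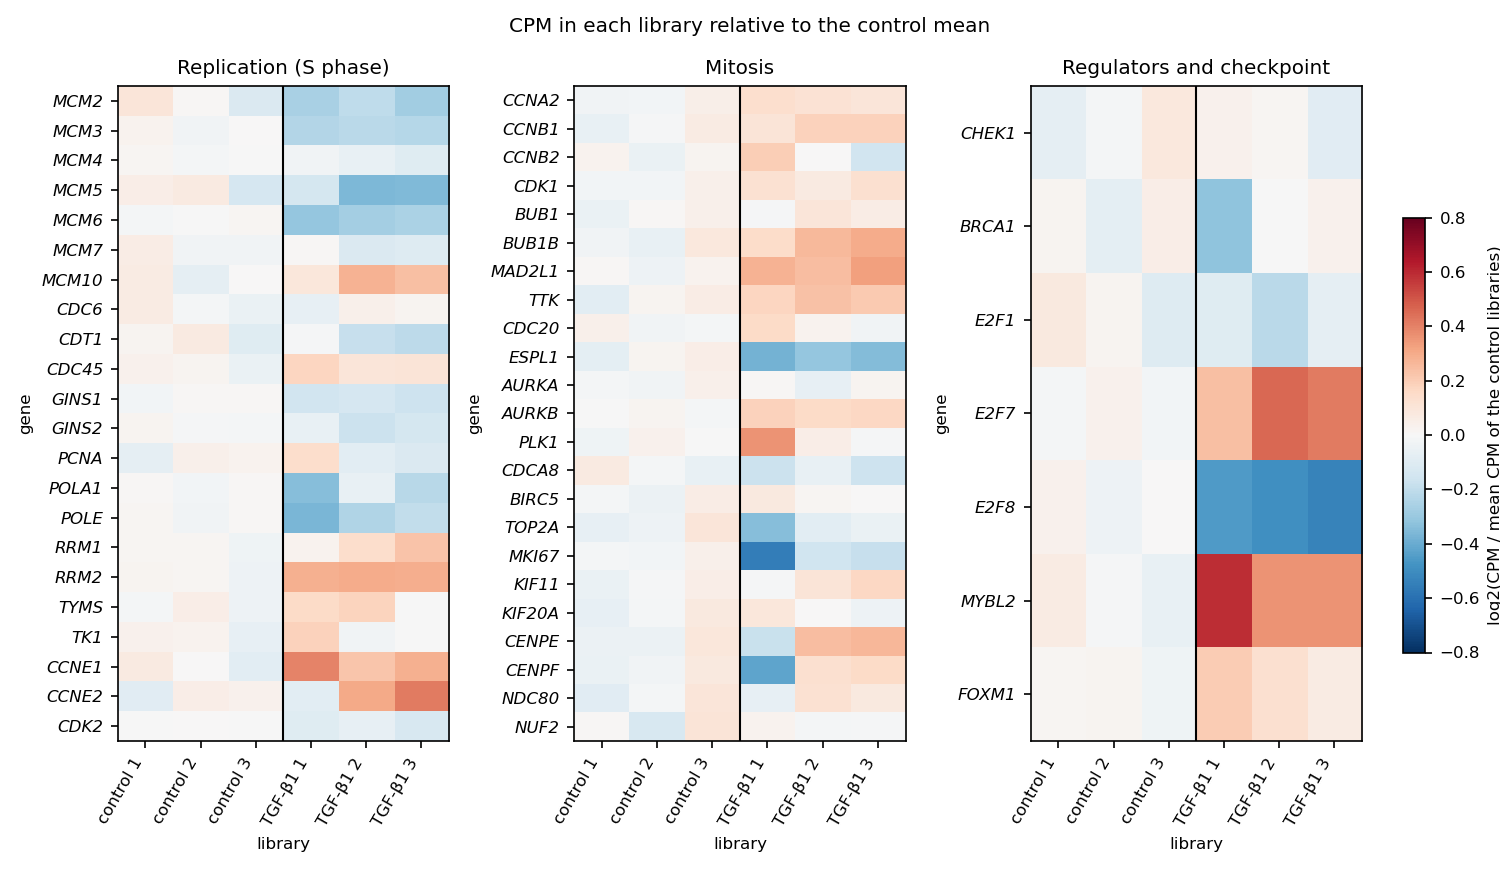
Log2 ratio of CPM in each library (columns, 3 control and 3 TGF-β1) to the mean of the control libraries, for the 52 tested genes (rows) in panels for replication, mitosis, and regulators and checkpoint genes. Red is above and blue below the control mean on a scale from -0.8 to 0.8, and it shows MCM2, MCM3, MCM5 and MCM6 below the control mean in all 3 TGF-β1 libraries and MKI67, CENPF, CENPE and BRCA1 lower in the first TGF-β1 library than in the other two.

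Of the 4 mitotic cyclin and CDK1 genes 1 rose. CCNB1 (chr5:69167150-69178245 on the plus strand) encodes cyclin B1, which with CDK1 starts mitosis, and had the highest level per length of the 4 genes (445 ± 27.2 TPM in control). Its values were 260.1, 269.8 and 283 CPM in control and 291, 308 and 309 CPM with TGF-β1. The groups did not overlap, though the third control library came close to the first treated one. CCNB1 had a log2 fold change of 0.16 (95% interval 0.037 to 0.28, adjusted p = 0.0368), and this call was lost with total counts scaling (0.049), with a minimum mean of 50 counts (0.14, adjusted p = 0.0621) and without control replicate 1 or 2 or TGF-β1 replicate 2 or 3 (adjusted p = 0.110 to 0.140). Cyclin A2 (CCNA2, 0.12), cyclin B2 (CCNB2, 0.024) and CDK1 (0.11) were not called (log2 fold changes). CCNA2 shares 9.24% of its exonic bases with EXOSC9 on the opposite strand.

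The spindle checkpoint holds cells in metaphase until every kinetochore is attached, and 3 of the 4 checkpoint genes in the set rose. They belong to a block of 6 spindle checkpoint and anaphase genes, of which 3 rose and 1 fell. The shares of all entries were 22.2% higher and 22.1% lower. In the list of other mitosis genes the checkpoint genes BUB3 (0.12) and MAD1L1 (-0.16) were not called (log2 fold changes). MAD2L1 (chr4:120055623-120066848 on the minus strand), which encodes the checkpoint protein MAD2, was at 153, 148 and 155 CPM in the control libraries and 184, 179.8 and 191 CPM in the TGF-β1 libraries. The groups were well apart, with a log2 fold change of 0.29 (95% interval 0.17 to 0.40, adjusted p = 0.000941). BUB1B (chr15:40161069-40221123 on the plus strand), which encodes BUBR1, was at 98.2, 95.8 and 106 CPM and 111, 119.7 and 123 CPM. The log2 fold change was 0.24 (95% interval 0.10 to 0.37, adjusted p = 0.00942), and the groups were separate. A readthrough transcript on the same strand, BUB1B-PAK6, shares 4.69% of the exonic bases of BUB1B and had 0 to 4 counts a library. Only reads in that part are uncertain. TTK (chr6:80004147-80042651 on the plus strand), the kinase MPS1 that starts the checkpoint, had 109.7, 118 and 121 CPM in control and 131, 137 and 134 CPM with TGF-β1. Its treated libraries also lay above all control libraries, with a log2 fold change of 0.21 (95% interval 0.084 to 0.33, adjusted p = 0.0109). The calls of BUB1B and TTK were lost with total counts scaling (log2 fold changes 0.13 and 0.098), that of BUB1B also without control replicate 2 (adjusted p = 0.0558) and that of TTK without control replicate 1 (adjusted p = 0.0581). BUB1, the fourth, had a log2 fold change of 0.051 (95% interval -0.067 to 0.17, adjusted p = 0.468).

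Anaphase follows when the checkpoint is satisfied, and of the 2 genes of this step 1 fell. ESPL1 (chr12:53268257-53293643 on the plus strand) encodes separase, the protease that cuts cohesin so that sister chromatids part. It was at 119, 128 and 131 CPM in control and 96.9, 102 and 99.3 CPM with TGF-β1. All 3 treated libraries were below the lowest control library. The fall, a log2 fold change of -0.34 (95% interval -0.47 to -0.22, adjusted p = 0.000475), was the largest in size among the mitosis genes and was -0.34 without the first TGF-β1 library as well. CDC20, which activates the anaphase promoting complex, had the highest level per length of this block (336 ± 6.18 TPM in control). CDC20 was at 171, 163 and 165 CPM and 185, 170.1 and 163 CPM in overlapping groups, with a log2 fold change of 0.054 (95% interval -0.076 to 0.18, adjusted p = 0.492).

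Of 5 genes of mitotic kinases and the chromosomal passenger complex, 1 rose. AURKB (chr17:8204731-8210767 on the minus strand), the kinase of the passenger complex, was at 94.7, 96.2 and 93.8 CPM in control and 108, 105 and 107 CPM with TGF-β1. Both groups were tight and did not overlap. The log2 fold change was 0.17 (95% interval 0.059 to 0.28, adjusted p = 0.0171), and the call was lost with total counts scaling (0.060) and without any 1 of the control libraries or TGF-β1 replicate 3 (adjusted p = 0.0542 to 0.0583). The other passenger genes, CDCA8 (borealin, -0.13) and BIRC5 (survivin, 0.034), were not called, nor was PLK1 (0.14). AURKA, the kinase of spindle poles and the gene with the highest level per length here (231 ± 9.87 TPM), was at 208, 206 and 216 CPM in control and 211, 201 and 213 CPM with TGF-β1. It had a log2 fold change of -0.011 (95% interval -0.12 to 0.10, adjusted p = 0.882), and its groups overlapped.

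Among 8 genes of chromosome structure, kinetochores and motors, 1 fell and none rose. MKI67 (chr10:128096659-128126423 on the minus strand) encodes Ki-67, the coat protein of mitotic chromosomes used as a proliferation marker. It was at 763, 759 and 792 CPM in the control libraries and 526, 689 and 679 CPM in the TGF-β1 libraries. The groups did not overlap, and the first treated library was far below the other two. MKI67 had a log2 fold change of -0.29 (95% interval -0.50 to -0.075, adjusted p = 0.033). Without the first TGF-β1 library it was -0.18 (adjusted p = 0.00157), and the call was lost when any control library was left out (adjusted p = 0.0729 to 0.105). TOP2A, the topoisomerase that untangles sister DNA, had the highest level per length of the mitosis genes (537 ± 42.5 TPM). TOP2A was at 898, 914 and 1004 CPM in control and 740.3, 884 and 905 CPM with TGF-β1, with one treated library inside the control range, and its log2 fold change was -0.16 (95% interval -0.33 to 0.022, adjusted p = 0.142). The kinetochore genes NDC80 (0.045) and NUF2 (0.0021) and the motors KIF11 (0.09) and KIF20A (0.017) were not called (log2 fold changes).

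CENPE and CENPF, a kinetochore motor and a kinetochore protein, depended on the first TGF-β1 library. CENPF was at 781, 794 and 853 CPM in control and 604, 886 and 899 CPM with TGF-β1. The first treated library was below, and the other two above, every control library, and the log2 fold change over all 6 libraries was -0.023 (95% interval -0.41 to 0.36, adjusted p = 0.922). Values for CENPE were 187, 187 and 205 CPM and 170.2, 229 and 232 CPM in the same pattern, with a log2 fold change of 0.12 (95% interval -0.15 to 0.40, adjusted p = 0.431). Without that library both were called higher, CENPF at 0.13 (adjusted p = 0.0277) and CENPE at 0.25 (adjusted p = 0.000425).

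**Figure D3:**
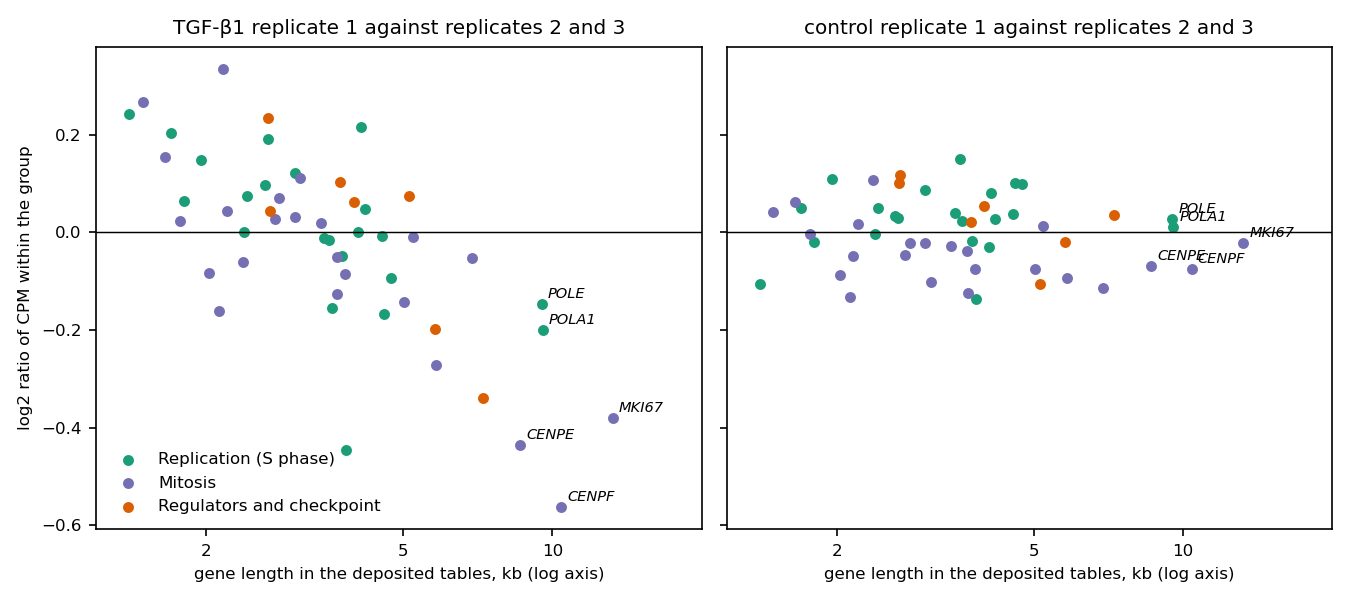
Log2 ratio of CPM in the first library of a group to the mean of the other two libraries of that group (y axis) against gene length in the deposited tables in kb (x axis, log scale) for the 52 tested genes, with TGF-β1 on the left and control on the right. Points are genes coloured by phase, and in the TGF-β1 panel they fall with length (Pearson r = -0.72), with CENPF, CENPE and MKI67 among the lowest points.

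The lower values of the first TGF-β1 library followed length across the set. Over 52 genes the log2 ratio of this library to the other 2 had a Pearson correlation with log2 length of -0.72 (Spearman -0.66), and in the control group the same quantity for control replicate 1 had -0.15 (Spearman -0.19). Across 10719 entries with a mean of at least 5 CPM the Pearson correlations were -0.43 and -0.093 (Spearman -0.58 and -0.20). These are correlations across genes of the same libraries, which are not independent points. The part of length in the calls of the long genes was not tested beyond leaving out the library. In that analysis the count of called replication genes went from 10 to 17 (5 higher, 12 lower), with MCM7, CDT1, GINS2, PCNA and CDK2 added as lower and RRM1 and CCNE2 as higher, and the count of mitosis genes went from 7 to 10 (8 higher, 2 lower), with KIF11, CENPE and CENPF added as higher.

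Regulators of the 2 programmes included the largest changes of the set in either direction. Of 6 transcription regulators 2 rose and 1 fell, 2 were not called and E2F2 was not tested. MYBL2 (chr20:43667114-43716482 on the plus strand), the activator of mitotic genes and itself an E2F target, had the highest level per length of its block (546 ± 14.8 TPM in control). It was at 459, 435 and 419.9 CPM in control and 661, 562 and 562 CPM with TGF-β1. The first treated library was highest, and all 3 were above the control libraries. The log2 fold change was 0.44 (95% interval 0.28 to 0.60, adjusted p = 0.00055), and without the first TGF-β1 library it was 0.35. FOXM1, which acts with it, was not called, with a log2 fold change of 0.13 (95% interval 0.014 to 0.25, adjusted p = 0.0668). It shares 12.1% of its exonic bases with ITFG2 on the opposite strand.

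E2F7 and E2F8 encode atypical E2F repressors, which turn S phase genes off again, and they moved in opposite directions. E2F7 (chr12:77021251-77065580 on the minus strand) was at 138, 143 and 137 CPM in the control libraries and 164, 191 and 186 CPM in the TGF-β1 libraries. It rose in every treated library, with a log2 fold change of 0.37 (95% interval 0.23 to 0.51, adjusted p = 0.000703). E2F8 (chr11:19224063-19241655 on the minus strand) was at 16.6, 15.7 and 16.2 CPM in control and 11.8, 11.5 and 11.2 CPM with TGF-β1. Both groups were tight and clearly apart, and the log2 fold change of -0.49 (95% interval -0.65 to -0.33, adjusted p = 0.000294) was the largest fall of the set. Per length, E2F7 was the more abundant in control cells (80.2 ± 1.97 against 13.5 ± 0.38 TPM).

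The activator E2F1 was not called, with a log2 fold change of -0.13 (95% interval -0.27 to 0.017, adjusted p = 0.139), but it was called lower without the first TGF-β1 library (-0.15, adjusted p = 0.0499). E2F2 had 0, 2 and 0 counts in the control libraries and 0 in each TGF-β1 library at its entry on chromosome 1, so no fold is given. A second entry of that name on an alternate contig had 9, 26 and 19 counts in control and 22, 17 and 21 counts with TGF-β1, so the level of E2F2 is uncertain. Neither checkpoint gene was called. BRCA1, which protects stalled forks and repairs breaks, had the higher level per length (68.3 ± 3.78 TPM in control). BRCA1 was at 151, 141 and 154 CPM in control and 119, 149 and 152 CPM with TGF-β1, with only the first treated library below the control range, and its log2 fold change was -0.089 (95% interval -0.29 to 0.11, adjusted p = 0.451). CHEK1, the kinase that slows the cycle when forks stall, had a log2 fold change of -0.011 (95% interval -0.15 to 0.13, adjusted p = 0.905).

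Library by library, the median log2 ratio to the control mean over the replication genes was 0.021, 0.0083 and -0.022 in the control libraries and -0.044, -0.063 and -0.11 with TGF-β1. For the mitosis genes it was -0.031, -0.022 and 0.053 in control and 0.081, 0.075 and 0.059 with TGF-β1. The mitosis median minus the replication median was therefore -0.052, -0.031 and 0.075 in the control libraries and 0.13, 0.14 and 0.17 in the TGF-β1 libraries. The gap was larger in each treated library than in each control library. It was taken from the same genes as the calls above, and the trend with length in the first TGF-β1 library was not removed. The gap is a description of these lists, with no test.

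The promoter letters divided the replication genes in the same descriptive sense. Of the 12 with E2F letters 6 fell and none rose (median log2 fold change -0.14), and of the 6 without them 3 rose and none fell (median 0.17). The 3 that rose were MCM10, RRM2 and CCNE1, and the 6 that fell were MCM2, MCM3, MCM6, GINS1, POLA1 and POLE. MCM5, which also fell, had no window. Among mitosis genes with CHR letters (14) 2 rose and 2 fell (median 0.034), and without them (6) 2 rose and none fell (median 0.12). Over all entries tested 22.2% were called higher and 22.1% lower, and the calls of all genes with these letters were not counted. The E2F split largely followed role. With a window, 8 of 10 licensing and helicase genes and 3 of 3 DNA synthesis genes had E2F letters. Among nucleotide supply genes it was 1 of 4, and for cyclin E and CDK2 0 of 1. The 2 were not told apart. Lack of these exact letters does not place a gene outside E2F control. This split was looked at after the values were known, and the shares of these groups were not tested.

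Other genes of the same pathways were counted from lists outside the 53. Of 56 other replication genes 7 rose and 8 fell, with a median log2 fold change of -0.0062. The largest rises were POLD4 (0.71), a small subunit of polymerase δ, POLE3 (0.36), a small subunit of polymerase ε, and ORC6 (0.26), a subunit of the origin recognition complex. The largest falls were TIMELESS (-0.36), which protects the fork, CDCA7 (-0.35) and ORC4 (-0.26). Of 24 fork repair genes 1 rose (BLM, a helicase, 0.26) and 4 fell, among them RMI2 (-0.40), which acts in the same complex as BLM, FANCD2 (-0.26) of the Fanconi pathway and the uracil glycosylase gene UNG (-0.20), with a median of -0.035. The call of UNG was lost without control replicate 1 (adjusted p = 0.0656). These lists held called shares of 15 of 56 and 5 of 24, beside 44.3% of all entries, and 23 of 56 (8 higher, 15 lower) and 6 of 24 without the first TGF-β1 library.

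Of 73 other mitosis genes 71 were tested, 17 rose and 7 fell, with a median of 0.064. ARHGAP11A had the largest rise (1.39), but its name has 4 entries in the tables and the tested one was at 0.84, 0.90 and 0.60 CPM in control, so its value is uncertain. CENPW (0.53), a centromere protein, and CKS1B (0.43), a CDK subunit, came next. The falls were led by ECT2 (-0.44), CIT (-0.35) and ANLN (-0.24), which are known to act in cytokinesis, and other cytokinesis genes of the list, RACGAP1 (-0.0036), KIF23 (0.033) and PRC1 (-0.059), were not called. The called share was 24 of 71, and 33 of 71 without the first TGF-β1 library. With total counts scaling, the counts were 4 higher and 23 lower of the 56 replication genes (median -0.11), 0 and 6 of the 24 fork repair genes (median -0.14) and 5 and 15 of the 71 mitosis genes, whose median turned to -0.045.

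**Figure D4:**
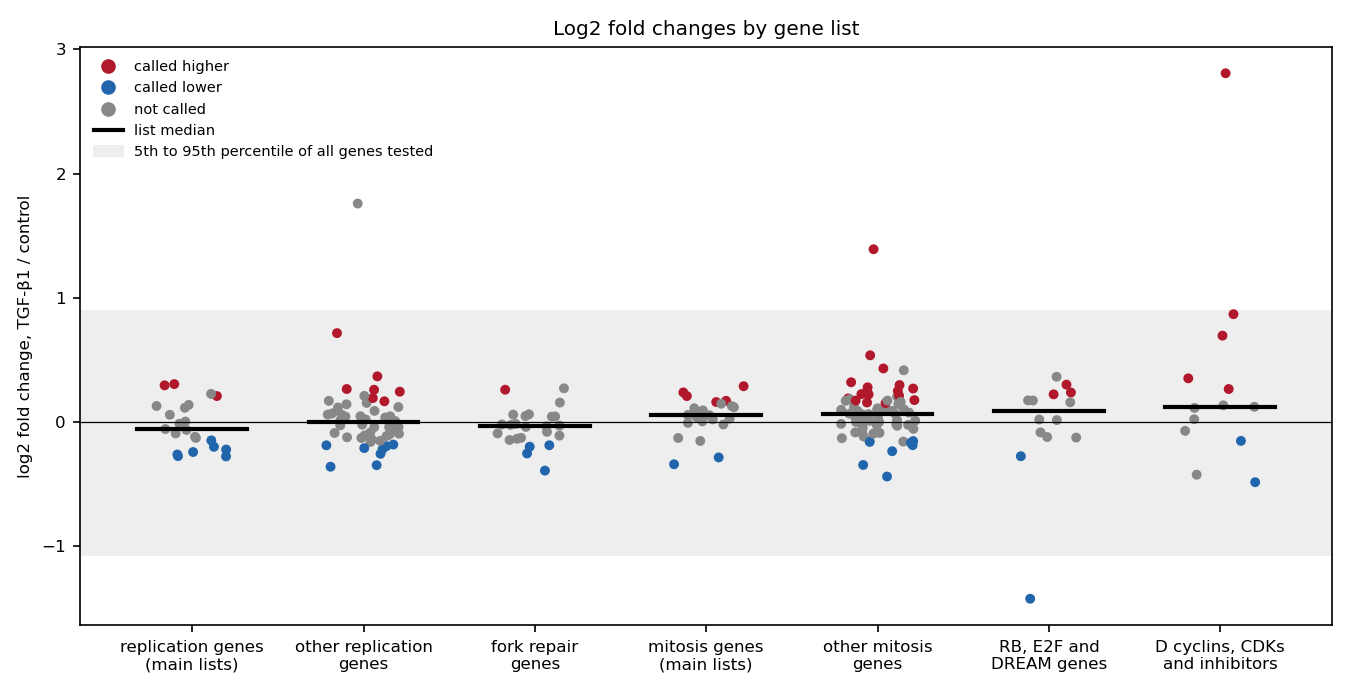
Log2 fold change of TGF-β1 over control (y axis) for the tested genes of 7 lists (x axis), with genes called higher in red, lower in blue and not called in grey. Black bars are list medians, from -0.064 (replication genes) to 0.12 (D cyclins, CDKs and inhibitors) with TMM scaling, and the grey band runs from the 5th to the 95th percentile of all entries tested (-1.08 to 0.89), outside which lie CDKN2B, ARHGAP11A, ASF1B (not called, 2 entries of that name) and MYBL1.

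Some genes that act upstream of both phases changed more than any gene of the set. Of 13 D cyclins, their kinases and CDK inhibitors 5 rose and 2 fell (median 0.12, and 0.012 with total counts scaling). CDKN2B encodes p15INK4B, the inhibitor of CDK4 and CDK6. It was at 39.1, 39.0 and 37.3 CPM in control and 275, 266 and 267 CPM with TGF-β1, and its log2 fold change of 2.81 (95% interval 2.69 to 2.93, adjusted p = 9.1e-11) was far beyond that of any gene of the set. CDKN1A, which encodes the CDK inhibitor p21, was at 16.0, 16.8 and 15.6 CPM and 21.8, 18.4 and 17.8 CPM, with a log2 fold change of 0.26 (95% interval 0.07 to 0.46, adjusted p = 0.0311). The first treated library was the highest, and without it the log2 fold change was 0.16 and the call was lost (adjusted p = 0.103), as it was when any control library was left out (adjusted p = 0.0542 to 0.102). CCND1, encoding cyclin D1, was at 229, 208 and 197 CPM in control and 255, 277 and 275 CPM with TGF-β1. All treated libraries were above the control libraries, and the log2 fold change was 0.35 (95% interval 0.21 to 0.49, adjusted p = 0.00132).

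The inhibitor gene CDKN2A (0.87) and the kinase gene CDK6 (0.69) also rose, and cyclin D2 (CCND2, -0.49) and CDK4 (-0.16) fell (log2 fold changes). The call of CDK4 was lost without control replicate 1 or 2 or TGF-β1 replicate 2 or 3 (adjusted p = 0.0850 to 0.172). Of 14 genes of the retinoblastoma, E2F and MuvB (DREAM) complexes 3 rose and 2 fell (median 0.086, and -0.022 with total counts scaling). The rises were LIN9 (0.30), E2F6 (0.23) and E2F4 (0.22), of which E2F6 lost its call without control replicate 2 or TGF-β1 replicate 2 (adjusted p = 0.0545 and 0.0566) and E2F4 without control replicate 3 (adjusted p = 0.0722), and the falls were MYBL1 and RBL2 (-0.28), which encodes the pocket protein p130. MYBL1, which encodes the MYBL2 relative A-MYB, was at 126, 125 and 131 CPM in control and 43.8, 49.2 and 49.4 CPM with TGF-β1. It fell with a log2 fold change of -1.43 (95% interval -1.57 to -1.29, adjusted p = 2.1e-08), while MYBL2 rose.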

How the data were processed

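RNA of HK-2 cells was analysed in 3 control and 3 TGF-β1 libraries, grouped by the treatment in their labels. Per the labels, mRNA was captured on oligo(dT) beads and reverse transcribed from random hexamers. The submitters' processing notes name CASAVA, featureCounts 2.0.1, DESeq2 1.16.1 and the build hg38, without their roles. The aligner, the annotation release and whether counting used strand are not given in the sources used here. The deposited tables hold raw read counts per gene, with TPM and FPKM values that the authors computed from counts and gene length. FPKM was not used, and TPM served only to rank levels per length.

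Each table had 7 records broken over lines, which were rejoined. Loci without a name (598, at most 0.464% of counts) were left out of tests and library sizes. Entries were filtered with filterByExpr (minimum count 10), scaled with TMM and compared with the two-sided quasi-likelihood F test of edgeR 4.0.16 in R 4.3.3, with robust dispersion. Benjamini-Hochberg adjustment covered 14860 entries, with calls at an adjusted p under 0.05. CPM values use the TMM-scaled library size, and intervals of log2 fold changes are 95% intervals from the same fit. The script was tested on simulated counts with known changes. Those changes were larger than any of the set, so the test does not cover changes of the sizes reported for it.

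The genes and lists were chosen with earlier results of these data known. A gene of the treatment check is not reported here. Values in every library are given for each called gene of the set, for the gene of each role with the highest mean TPM and for CDKN1A, CDKN2B and CCND1. Other genes of the set are given by their fold change. Library values of CENPE, CENPF, E2F2 and MYBL1, and the promoters shown, were added after the values were seen. From each list of other genes at most the 3 largest called changes in each direction are named. Named outside this rule are BUB3, MAD1L1, RACGAP1, KIF23, PRC1 and ASF1B, which were not called, and LRP2, SLC22A6 and CD3E, which were not tested. Alternatives were DESeq2 1.42.0, limma-voom (limma 3.58.1), RLE size factors, total counts, 2 filters on low counts, a replicate block, primary entries alone, entries of a name summed, and each library left out in turn.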

Additional observations from a re-analysis of the deposited data

How the results depend on the processing

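Of the 20 called genes of the set, 11 kept their call in all 15 alternatives (CCNE1, E2F7, E2F8, ESPL1, MAD2L1, MCM2, MCM3, MCM6, MYBL2, POLE and RRM2), and none changed direction. AURKB, BUB1B, CCNB1, MCM10 and TTK lost their call with total counts scaling, which lowers all values, CCNB1 with a minimum mean of 50 counts, and GINS1 when all entries with a count were tested. These 6 genes, and MCM5, MKI67 and POLA1, lost it in at least 1 of the 6 analyses without a library. The cause was not tested. The called replication genes (10) numbered 6 to 17 when a library was left out, with 6 when control replicate 2 was omitted and 17 when the first TGF-β1 library was, and 9 to 14 otherwise. The called mitosis genes (7) numbered 3 to 10, 3 without control replicate 1 or control replicate 2, and 5 to 7 otherwise. The regulators and checkpoint genes gave 3 to 4 and all entries 5333 to 7196. The median log2 fold change of the replication genes was -0.11 to -0.050 without a library and -0.17 with total counts, and that of the mitosis genes 0.039 to 0.073 and -0.057.

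Deviations of same-numbered libraries from their group means had correlations of 0.11, -0.014 and 0.093 across entries. Those of differently numbered libraries ran from -0.16 to 0.086. With 3 libraries a group these values cannot decide whether the replicate numbers pair the libraries. With the replicate block, 11 replication genes, 7 mitosis genes and 3 regulators were called, CCNE2 being added, and 6790 entries in all. With 3 libraries a group the number of libraries limits which small changes can be called.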
